A study of Mus musculus with 39 samples.

Results

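The genes described here are 33 named genes of B cells, germinal centre B cells and plasma cells, with the immunoglobulin genes themselves left out. Of the 33, 32 have an entry in the expression tables, out of 34574 named entries in all, and Blk, a Src-family kinase of B cells, was not analysed here. The ileum, the colon and a sample labelled duodenum/jejunum were sequenced from 6 BALB/cJ and 7 C57BL/6J mice, both inbred strains. With 1 library per tissue and mouse there were 39 libraries, in 6 groups of 6 or 7. The labels name no treatment, transgene or deletion, and they give neither sex, age, litter, housing, batch nor time of collection, so anything of that kind that differed between the strains cannot be told apart from strain. The libraries are whole-tissue RNA, and fewer cells of a type and less RNA per cell cannot be told apart in them.

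B cells carry an antigen receptor, a membrane immunoglobulin that signals through the paired chains CD79A and CD79B, and they gather in follicles such as Peyer's patches of the small intestine and the isolated follicles and patches of the colon. After antigen contact some enter germinal centres, where their immunoglobulin genes are mutated and switched. Others become plasma cells, which fill the lamina propria of the gut, lose most of the B cell surface proteins, enlarge their secretory apparatus and release mostly IgA.

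Values are TPM, transcript abundances for which each library is scaled to the same total, so a level is relative to the rest of the RNA in that library. Returned to TPM, the libraries summed to between 978462 and 994059, and between 14537 and 16165 genes reached 1 TPM. Strains were compared in each tissue by limma on log2(TPM + 1), as BALB/cJ minus C57BL/6J, with p-values adjusted over all genes tested, and a gene with an adjusted p under 0.05 is said to be called, higher or lower. Genes needed 1 TPM in 6 libraries of the tissue to be tested. All 32 genes passed in the ileum and 31 in the other tissues, where Mef2b did not. A fold is a ratio of mean TPM.

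C57BL/6J mouse 2 stood apart. Fabp6, an ileal bile acid binding protein, was at 22.1 TPM in its library labelled ileum and at 6111 TPM in its library labelled duodenum/jejunum. Its library labelled ileum was the lowest of the C57BL/6J ileum group for 27 of the 32 genes, and its library labelled duodenum/jejunum was the highest of that group for 19. The labels were kept. Without this mouse the genes of the 32 called between strains were the same in each tissue, and values without it stand beside their ileal and duodenum/jejunum calls. In BALB/cJ mouse 2, 31 of the 32 genes were highest of the group in the ileum, and in C57BL/6J mouse 3, 22 were. These 2 libraries also had the most genes at 1 TPM of their groups, 16165 and 15793. No share over all genes stands beside the counts of single libraries, so they describe these genes only. Cpa1, a pancreatic enzyme gene, reached 74.0 and 21.1 TPM in the colon libraries of BALB/cJ mice 3 and 5.

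The B cell markers Cd79a, Cd79b, Ms4a1 and Pax5 and the plasma cell markers Mzb1, Tnfrsf17, Jchain and Igha were found in every library. Their lowest values were 2.06 TPM for Cd79a, 2.85 TPM for Cd79b, 1.96 TPM for Ms4a1 and 0.386 TPM for Pax5. For the plasma cell markers they were 4.14 TPM for Mzb1, 0.252 TPM for Tnfrsf17, 193 TPM for Jchain and 698 TPM for Igha. Some of the 32 genes are not specific to B cells. Among others, Xbp1 and Sdc1 are also made by epithelium, Spib by the M cells over follicles and Ebf1 by stromal cells and fat. Ltb is also made by innate lymphoid cells.

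The strains differed most in the colon. There 23 of the 31 genes tested were higher in BALB/cJ, none was lower and 8 were not called, beside 25.3% of all 15769 genes called, 14.5% higher and 10.8% lower. Their median log2 difference was 0.77, beside 0.02 over all genes tested. In the ileum 9 of 32 were higher, none was lower and 23 were not called, beside 20.4% of 15537 genes called, 17.2% higher and 3.17% lower. The ileal median was 0.59, beside 0.17 over all genes. In the duodenum/jejunum 1 gene was higher, 1 was lower and 29 were not called, with a median of -0.05. The background in that tissue was 9.50% of 15306 genes called, 4.70% higher and 4.80% lower, with a median of 0.01.

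The ileal count is the least settled of these. All 32 differences were above 0 in the ileum, and the 9 genes called were Cd79a, Cd72, Fcrl1, Cd83, Fcer2a, Ltb, Pou2af1, Bcl6 and Mzb1. Without BALB/cJ mouse 2 only Fcer2a, Ltb and Pou2af1 were called, 3 of 32, beside 2284 of 15278 genes called, 1816 of them higher. That count is not above the share over all genes. Without C57BL/6J mouse 3 the count was 16, beside 4041 of 15380 genes called, 3551 of them higher. Without C57BL/6J mouse 2 the same 9 genes were called, beside 3628 of 15434 genes, and the median was 0.43, beside 0.16 over all genes. When libraries were scaled by the median ratio to a common profile (RLE), 30 of the 32 differences were above 0 and their median was 0.42. Then 4 genes were called, Fcrl1, Fcer2a, Ltb and Pou2af1. Cd79a (log2 0.61, limma adjusted p 0.077), Cd72 (0.56, 0.087), Cd83 (0.70, 0.086), Bcl6 (0.42, 0.12) and Mzb1 (0.73, 0.08) were not. Under this scaling the median of all ileal genes was -0.00 and their calls were 942 higher and 882 lower, in place of 2677 higher and 492 lower. In the colon the same 23 genes were called under it.

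Separation of single libraries stood out from the share of all genes only in the colon. In the colon, every BALB/cJ library was above every C57BL/6J library for 13 of 31 genes, beside 6.49% of all genes tested. These were Cd79a, Cd79b, Cd22, Cd72, Fcrl1, Ms4a1, Cd37, Cd180, Fcer2a, Cxcr5, Ltb, Tnfrsf13b and Pou2af1. Fcrl1 passed the filter there through the BALB/cJ libraries, so it adds no support to this count. In the ileum this held for Pou2af1 and Mzb1, 2 of 32 genes beside 8.37% of all genes. For the duodenum/jejunum it held for Ltb, 1 of 31 genes beside 2.89% of all genes.

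**Figure D1:**
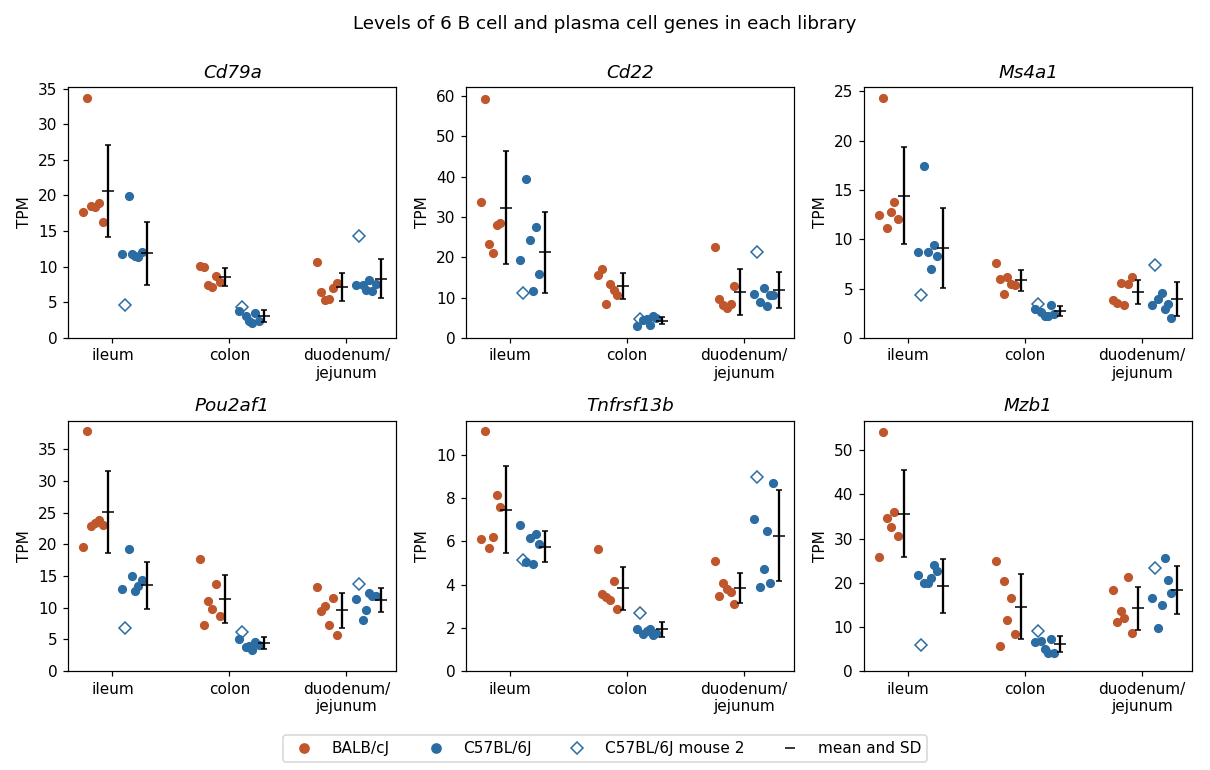
TPM of Cd79a, Cd22, Ms4a1, Pou2af1, Tnfrsf13b and Mzb1 in each library, by tissue and strain, with BALB/cJ left of C57BL/6J; each point is 1 mouse, bars show the mean and SD (6 BALB/cJ and 7 C57BL/6J mice), and open diamonds mark C57BL/6J mouse 2. In the colon the BALB/cJ points of the first 5 genes lie above every C57BL/6J point, while in the duodenum/jejunum the strains overlap for all 6.

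The antigen receptor group held Cd79a and Cd79b, the signalling chains, Bank1, a scaffold that links the receptor to calcium release, and the inhibitory coreceptors Cd22 and Cd72. It also held the Fc receptor-like genes Fcrl1, a surface coreceptor, and Fcrla, an intracellular member. In the colon 7 of 7 were higher in BALB/cJ (median log2 difference 1.09). In the ileum 3 of 7 were higher (median 0.68), and in the duodenum/jejunum none was called (median -0.05). Over all genes, 14.5% were called higher in the colon and 17.2% in the ileum. The ileal count of this group is too small to set apart from that share.

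In the colon, Cd79a was at 7.17, 8.26 and 10.1 TPM (lowest, median and highest) in BALB/cJ and at 2.06, 2.99 and 4.29 TPM in C57BL/6J. The groups did not overlap, and the difference was 2.79-fold (log2 1.25, SE 0.13, limma adjusted p 8.01e-06). In the ileum BALB/cJ libraries held 16.3, 18.4 and 33.6 TPM and C57BL/6J libraries 4.65, 11.7 and 19.9 TPM, and the strains overlapped. The highest BALB/cJ library, of mouse 2, stood well above the other BALB/cJ libraries, and the lowest C57BL/6J library was that of mouse 2. The ileal log2 difference was 0.79 (SE 0.24, limma adjusted p 0.037), or 0.60 (0.026) without C57BL/6J mouse 2 and 0.64 (0.080) without BALB/cJ mouse 2. Cd79a in the duodenum/jejunum differed by -0.19, with a 95% interval from -0.54 to 0.16 (limma adjusted p 0.61).

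Its partner Cd79b was 2.37-fold higher in the BALB/cJ colon, at 8.45, 10.5 and 14.5 TPM in BALB/cJ and 2.85, 4.56 and 6.67 TPM in C57BL/6J (limma adjusted p 2.10e-04), again with no overlap. In the ileum Cd79b averaged 25.6 ± 7.81 TPM in BALB/cJ and 16.8 ± 6.9 TPM in C57BL/6J (SD, n = 6 and 7), and the difference did not pass the test (limma adjusted p 0.14). Both chains are needed for the receptor to reach the cell surface.

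Cd22 showed the largest log2 difference of the group in the colon. It was at 8.32, 12.6 and 17 TPM in BALB/cJ, against 2.87, 4.64 and 5.43 TPM in C57BL/6J, 3-fold higher (log2 1.38, SE 0.16, limma adjusted p 1.93e-05). No library of either strain crossed into the range of the other. In the ileum Cd22 was at 21.1, 28.2 and 59.4 TPM in BALB/cJ, against 11.1, 19.4 and 39.4 TPM in C57BL/6J, which was not called (limma adjusted p 0.14; log2 0.78 and 0.047, called, without C57BL/6J mouse 3). Its duodenum/jejunum difference had a 95% interval from -0.56 to 0.40.

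Fcrl1 was low but well separated in the colon, at 2.36, 2.65 and 3.66 TPM in BALB/cJ and 0.377, 0.872 and 1.18 TPM in C57BL/6J, a 3.52-fold difference (limma adjusted p 1.05e-05). Most C57BL/6J colon libraries were under 1 TPM for it, and for Vpreb3, so both passed the filter there through the BALB/cJ libraries. Their colon calls, and the separation of Fcrl1, therefore add no support to the colon counts. With no filter on low values the same 23 colon genes were called. Fcrl1 was also higher in the ileum (log2 0.79, limma adjusted p 0.031; 0.67 and 0.038 without C57BL/6J mouse 2), but not called without BALB/cJ mouse 2 (0.63, 0.062). Cd72 was higher in the colon by 0.89 (limma adjusted p 5.31e-04) and in the ileum by 0.73 (0.039). Ileal Cd72 was at 0.61 (0.049) without C57BL/6J mouse 2 and at 0.58 (0.083) without BALB/cJ mouse 2. Bank1 (log2 0.77, limma adjusted p 0.0014) and Fcrla (0.85, 0.0025) were called in the colon only, and their differences between tissues were not called. In the ileum Bank1 differed by 0.38 (0.18) and Fcrla by 0.59 (0.14).

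**Figure D2:**
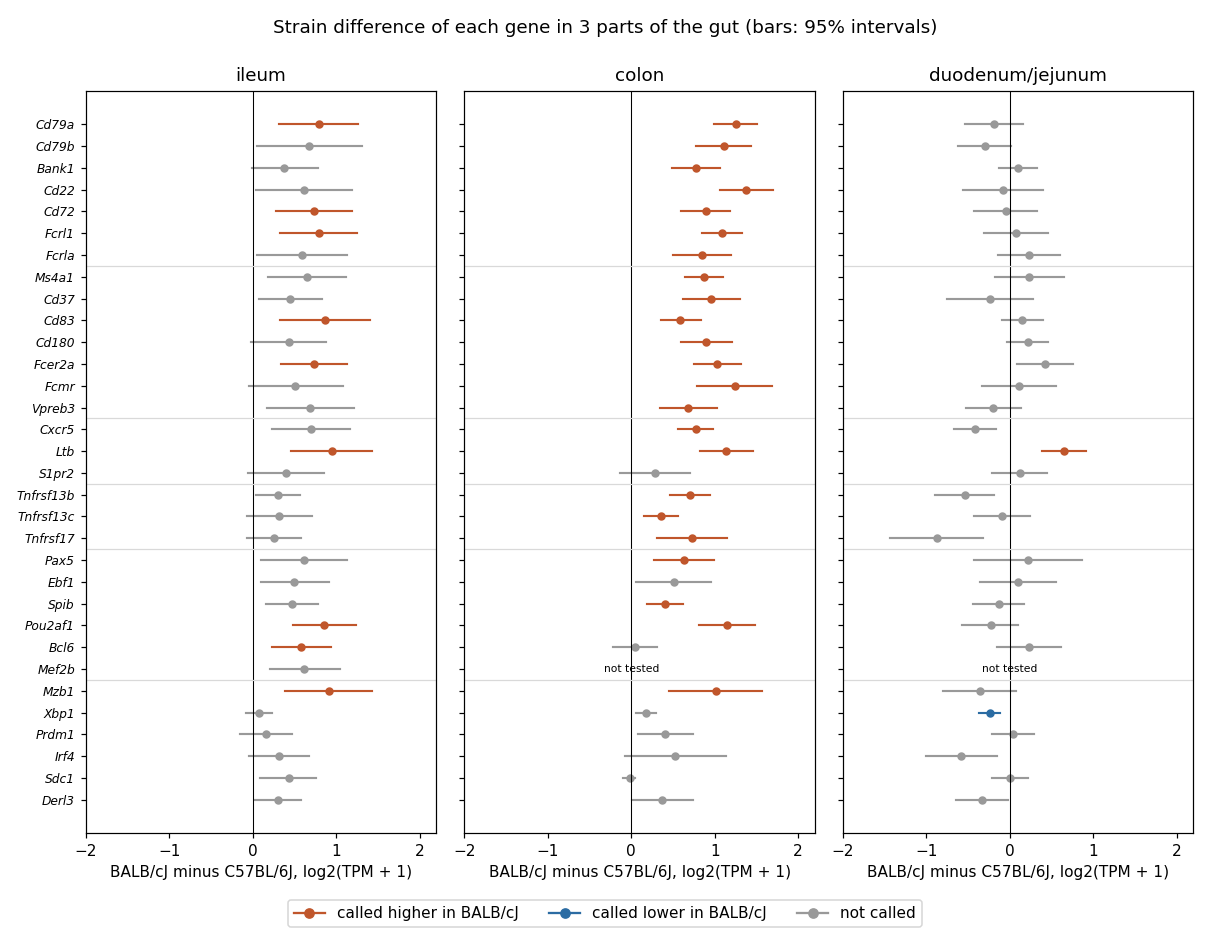
Difference between strains (BALB/cJ minus C57BL/6J, log2 scale) of each gene in the ileum, the colon and the duodenum/jejunum, with 95% intervals as bars; red marks genes called higher in BALB/cJ, blue genes called lower and grey genes not called. Red fills most of the colon panel (23 genes), 9 rows of the ileum panel and only Ltb in the duodenum/jejunum panel, where Xbp1 is the single blue row.

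The B cell surface group held Ms4a1, which codes for CD20, the tetraspanin Cd37, the activation marker Cd83, the Toll-like receptor homologue Cd180, the low-affinity IgE receptor Fcer2a (CD23), the IgM Fc receptor Fcmr and Vpreb3, a relative of the surrogate light chain. Of these 7, 7 were higher in the BALB/cJ colon (median 0.90), 2 in the ileum (median 0.65) and none in the duodenum/jejunum (median 0.15). The ileal count is too small to set apart from the 17.2% of all genes called higher there.

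Ms4a1 was at 4.41, 5.71 and 7.55 TPM in BALB/cJ colon and at 2.16, 2.64 and 3.46 TPM in C57BL/6J colon, with no overlap and a 2.13-fold difference (log2 0.87, SE 0.11, limma adjusted p 6.14e-05). In the ileum it was at 11.1, 12.7 and 24.3 TPM in BALB/cJ, against 4.34, 8.68 and 17.4 TPM in C57BL/6J (log2 0.65, limma adjusted p 0.069). A single BALB/cJ ileum library, of mouse 2, was above every C57BL/6J library, and the gene was called without C57BL/6J mouse 3 (0.81, 0.012). For the duodenum/jejunum the Ms4a1 difference was 0.23, with a 95% interval from -0.18 to 0.64.

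Fcer2a, which marks follicular B cells, was at 2.92, 5.14 and 6.21 TPM in BALB/cJ colon and at 1.34, 1.92 and 2.65 TPM in C57BL/6J colon (2.62-fold, limma adjusted p 8.99e-05). The lowest BALB/cJ value, of mouse 3, was still above the highest C57BL/6J value. Fcer2a was also higher in the ileum (log2 0.73, limma adjusted p 0.022; 0.66 and 0.03 without C57BL/6J mouse 2), and in the duodenum/jejunum it averaged 3.32 ± 0.866 TPM in BALB/cJ and 2.23 ± 0.716 TPM in C57BL/6J (SD, n = 6 and 7; limma adjusted p 0.16).

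Fcmr differed most in size within the surface group, 2.77-fold in the colon, where the strains overlapped in a single BALB/cJ library (limma adjusted p 0.0011). Cd180 (2.33-fold, 6.81e-04), Cd37 (2.19-fold, 0.001) and Vpreb3 (2.24-fold, 0.01) were likewise higher in the colon. Cd83 was higher in the colon by 0.59 on the log2 scale (limma adjusted p 0.0026) and in the ileum by 0.87 (0.042), with 0.72 (0.094) in the ileum without BALB/cJ mouse 2. Ileal Cd83 was at 2.23 TPM in C57BL/6J mouse 2, the lowest of the group, and without that mouse the difference was 0.65 (0.027).

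Of the genes of follicle position, Cxcr5 codes for the chemokine receptor that draws B cells into follicles, S1pr2 for a receptor that holds germinal centre B cells in place, and Ltb for the membrane-bound subunit of lymphotoxin, which B cells and innate lymphoid cells use to build follicles. Ltb was the only one of the 32 genes called higher in all tissues. Its duodenum/jejunum level was 5.2, 5.91 and 7.33 TPM in BALB/cJ and 2.66, 3.64 and 5.09 TPM in C57BL/6J, with no overlap (1.71-fold, log2 0.65, SE 0.13, limma adjusted p 0.0049; 0.68 and 0.0065 without C57BL/6J mouse 2). It was 2.07-fold higher in the ileum (limma adjusted p 0.017; log2 0.78 and 0.013 without that mouse) and 2.68-fold higher in the colon (1.20e-04).

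Cxcr5 was at 1.83, 2.4 and 3.49 TPM in BALB/cJ colon and at 0.865, 1.05 and 1.34 TPM in C57BL/6J colon (2.4-fold, limma adjusted p 1.12e-04). The order of the means was the opposite in the duodenum/jejunum, 1.13 ± 0.406 TPM in BALB/cJ and 1.83 ± 0.33 TPM in C57BL/6J (SD, n = 6 and 7), which did not pass the test (log2 -0.42, limma adjusted p 0.052). Cxcr5 was called lower there under RLE scaling (-0.42, 0.043) and with no variance trend (-0.42, 0.038). Its ileal difference was 0.70 (0.051; 0.84 and 0.014, called, without C57BL/6J mouse 3). S1pr2 was not called in any tissue, with differences of 0.40 in the ileum, 0.28 in the colon and 0.12 in the duodenum/jejunum (adjusted p 0.23 to 0.77 in limma).

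The receptors for the survival factors BAFF and APRIL are Tnfrsf13c, the BAFF receptor of mature B cells, Tnfrsf13b (TACI), found on activated and marginal zone B cells, and Tnfrsf17 (BCMA), found on plasma cells. In the colon 3 of 3 were higher in BALB/cJ (median 0.70) and in the other tissues none was called. Tnfrsf13b was at 2.85, 3.5 and 5.63 TPM in BALB/cJ colon and at 1.67, 1.85 and 2.67 TPM in C57BL/6J colon, without overlap (1.98-fold, limma adjusted p 6.50e-04). In the duodenum/jejunum it was at 3.09, 3.72 and 5.09 TPM in BALB/cJ, against 3.87, 6.47 and 8.96 TPM in C57BL/6J, so no BALB/cJ library was above the C57BL/6J median (log2 -0.54, SE 0.18, limma adjusted p 0.082; -0.45 and 0.14 without C57BL/6J mouse 2).

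Tnfrsf17 followed the same pattern with more spread. It averaged 3.24 ± 1.23 TPM in BALB/cJ and 1.52 ± 0.609 TPM in C57BL/6J in the colon (SD, n = 6 and 7; limma adjusted p 0.021), and 2.59 ± 1.32 TPM in BALB/cJ and 5.21 ± 1.45 TPM in C57BL/6J in the duodenum/jejunum (log2 -0.87, SE 0.28, limma adjusted p 0.07; -0.80 and 0.12 without C57BL/6J mouse 2). The duodenum/jejunum library of BALB/cJ mouse 6 was at 0.252 TPM, far under the others of its group. Without C57BL/6J mouse 3 both receptors were called lower in the BALB/cJ duodenum/jejunum, Tnfrsf17 at -1.0 (0.034) and Tnfrsf13b at -0.63 (0.036). Tnfrsf13c was higher in the BALB/cJ colon by 0.36 (limma adjusted p 0.02), the smallest colon difference called. Without BALB/cJ mice 3 and 5 neither Tnfrsf13c (0.33, 0.061) nor Tnfrsf17 (0.60, 0.11) was called in the colon.

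Of the ligands, Tnfsf13b (BAFF) was higher in the BALB/cJ ileum, at 12.3 ± 1.98 TPM in BALB/cJ and 9.15 ± 1.95 TPM in C57BL/6J (SD, n = 6 and 7; log2 0.40, limma adjusted p 0.046; 0.48 and 0.0061 without C57BL/6J mouse 2). It was not called in the colon or the duodenum/jejunum. Without that mouse its log2 differences there were 0.25 (limma adjusted p 0.064) and 0.06 (0.88). Tnfsf13 (APRIL) was not called in any tissue, at 27 ± 1.77 TPM in BALB/cJ and 27.2 ± 1.64 TPM in C57BL/6J in the colon.

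The transcription group held Pax5 and Ebf1, which set B cell identity, Spib, an ETS factor, Pou2af1, the B cell coactivator of octamer-binding factors, and the germinal centre factors Bcl6 and Mef2b. In the colon 3 of 5 were higher in BALB/cJ (median 0.51) and in the ileum 2 of 6 (median 0.59). In the duodenum/jejunum 0 of 5 were called (median 0.10). The ileal count is too small to set apart from the 17.2% of all genes called higher there. Pou2af1 was at 19.5, 23.1 and 37.8 TPM in BALB/cJ ileum and at 6.78, 13.5 and 19.3 TPM in C57BL/6J ileum, where every BALB/cJ library was above every C57BL/6J library (log2 0.86, SE 0.19, limma adjusted p 0.0075; 0.72 and 0.0032 without C57BL/6J mouse 2). It was also separated in the colon, at 7.32, 10.4 and 17.7 TPM in BALB/cJ and 3.4, 4.18 and 6.12 TPM in C57BL/6J (2.56-fold, limma adjusted p 1.83e-04). Pou2af1 in the duodenum/jejunum differed by -0.23, with a 95% interval from -0.57 to 0.10.

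Pax5 was higher in the BALB/cJ colon, at 2.74 ± 0.616 TPM in BALB/cJ and 1.47 ± 0.657 TPM in C57BL/6J (SD, n = 6 and 7; limma adjusted p 0.02), as was Spib (log2 0.40, 0.015). Ebf1 was called in no tissue, with log2 differences of 0.50 in the ileum, 0.51 in the colon and 0.10 in the duodenum/jejunum. Bcl6 was called in the ileum, 7.87 ± 1.48 TPM in BALB/cJ and 5.01 ± 1.42 TPM in C57BL/6J (log2 0.58, limma adjusted p 0.035; 0.47 and 0.037 without C57BL/6J mouse 2, 0.54 and 0.074 without BALB/cJ mouse 2), and stood at 6.25 ± 1.02 TPM in BALB/cJ and 6.1 ± 1.38 TPM in C57BL/6J in the colon. Its strain difference did not pass the test of a difference between tissues (limma adjusted p 0.28). Mef2b was measurable in the ileum, at 1.64, 2.04 and 3.87 TPM in BALB/cJ and 0.507, 0.871 and 2.89 TPM in C57BL/6J (log2 0.62, limma adjusted p 0.053; called without C57BL/6J mouse 3, 0.77 and 0.0065). In the colon and the duodenum/jejunum no library passed 0.737 TPM for Mef2b, and it was not tested.

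The 250 bases before the start of transcription were read from RefSeq (GRCm38.p6) for the 27 genes that could be matched, because several of the transcription factors above have known DNA motifs. Both strands were searched for the octamer ATGCAAAT, which octamer-binding factors and their coactivator Pou2af1 use, for CCCNNGGG, the core of the EBF1 site, and for TGACGTG, a core of the XBP1 site. No window held more than 1 of these motifs. The octamer was found in 2 of 27 windows (7.41%, Vpreb3 and Mef2b) beside 1.81% of 27025 genes, the EBF1 core in 4 (14.8%, Bank1, Cd22, Spib and Sdc1) beside 13.4%, and the XBP1 core in 1 (3.7%, Pou2af1) beside 1.85%. The 4 windows with a match and the highest ileal level are shown in full, 5′ to 3′ on the strand of the gene, with matched motifs in capitals. They lie at chr12:8771146-8771395 (Sdc1, plus strand), chr7:30879029-30879278 (Cd22, minus strand), chr9:51213440-51213689 (Pou2af1, plus strand) and chr7:44532072-44532321 (Spib, minus strand).
Sdc1: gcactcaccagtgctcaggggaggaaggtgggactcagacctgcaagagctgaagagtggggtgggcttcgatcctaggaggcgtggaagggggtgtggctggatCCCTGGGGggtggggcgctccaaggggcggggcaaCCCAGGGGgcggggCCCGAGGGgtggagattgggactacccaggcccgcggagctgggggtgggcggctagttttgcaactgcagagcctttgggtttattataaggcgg
Cd22: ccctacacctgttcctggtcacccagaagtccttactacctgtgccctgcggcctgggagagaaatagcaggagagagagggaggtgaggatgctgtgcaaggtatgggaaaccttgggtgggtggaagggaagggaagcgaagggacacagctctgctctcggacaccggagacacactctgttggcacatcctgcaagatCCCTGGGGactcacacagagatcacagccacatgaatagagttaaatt
Pou2af1: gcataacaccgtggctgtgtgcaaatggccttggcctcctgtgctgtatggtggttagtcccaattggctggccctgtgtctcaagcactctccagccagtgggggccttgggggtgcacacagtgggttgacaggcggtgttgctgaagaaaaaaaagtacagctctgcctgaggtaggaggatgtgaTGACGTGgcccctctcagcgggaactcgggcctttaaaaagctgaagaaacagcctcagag
Spib: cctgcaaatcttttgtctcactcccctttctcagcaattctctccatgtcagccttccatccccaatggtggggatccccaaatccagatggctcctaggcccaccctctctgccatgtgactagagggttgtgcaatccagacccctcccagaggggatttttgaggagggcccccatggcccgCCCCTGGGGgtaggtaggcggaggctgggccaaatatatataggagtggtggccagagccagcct
The Sdc1 window holds 3 matches to the EBF1 core, the Spib window 2 that overlap and the Cd22 window 1, and the Pou2af1 window holds the XBP1 core. Of these genes, Cd22, Pou2af1 and Spib were higher in the BALB/cJ colon and Sdc1 was not called.

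The plasma cell group held Mzb1, an endoplasmic reticulum protein that helps assemble immunoglobulin, Xbp1, the factor that expands the secretory apparatus, Prdm1 (Blimp-1) and Irf4, which drive plasma cell differentiation, Sdc1, the surface proteoglycan CD138, and Derl3, which takes misfolded proteins out of the endoplasmic reticulum. Only Mzb1 of these 6 was called higher in the colon (group median 0.39) and in the ileum (median 0.30). Xbp1 was called lower in the duodenum/jejunum (median -0.29). Over all genes, 14.5% were called higher in the colon, 17.2% higher in the ileum and 4.80% lower in the duodenum/jejunum. Single genes are too few to set this group apart from those shares.

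Mzb1 was at 25.8, 33.6 and 54.2 TPM in BALB/cJ ileum and at 5.99, 21 and 23.9 TPM in C57BL/6J ileum, without overlap (log2 0.91, SE 0.27, limma adjusted p 0.03). The lowest C57BL/6J value was that of mouse 2, without which the difference was 0.67 (0.0039), and without BALB/cJ mouse 2 it was 0.78 (0.068). In the colon Mzb1 was at 5.74, 14 and 24.9 TPM in BALB/cJ, against 4.14, 6.65 and 9.18 TPM in C57BL/6J (log2 1.01, SE 0.28, limma adjusted p 0.017; 0.78 and 0.11 without BALB/cJ mice 3 and 5). BALB/cJ colon values spread widely, with mouse 1 highest and mouse 2 lowest. Mzb1 in the duodenum/jejunum differed by -0.36, with a 95% interval from -0.79 to 0.08.

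Xbp1 was abundant everywhere. In the duodenum/jejunum it was at 145, 155 and 169 TPM in BALB/cJ, against 169, 187 and 194 TPM in C57BL/6J, and each C57BL/6J library was above each BALB/cJ library. The difference was small (log2 -0.24, SE 0.07, limma adjusted p 0.032; -0.26 and 0.023 without C57BL/6J mouse 2), and it was not called without BALB/cJ mouse 2 (-0.22, 0.073) or under RLE scaling (-0.25, 0.11). Nor was it called with no variance trend (-0.24, 0.056) or without BALB/cJ mice 3 and 5 (-0.23, 0.099). Prdm1, Irf4, Sdc1 and Derl3 were called in no tissue. Irf4 had the largest of their differences, -0.58 in the duodenum/jejunum (13 ± 5.37 TPM in BALB/cJ and 19.4 ± 4.96 TPM in C57BL/6J, SD, n = 6 and 7; limma adjusted p 0.13), and was called there without BALB/cJ mouse 2 (-0.75, 0.026). Sdc1 hardly differed in the colon, at 129 ± 6.52 TPM in BALB/cJ and 131 ± 3.97 TPM in C57BL/6J, with a 95% interval from -0.10 to 0.05.

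Whether the strain difference itself differed between tissues was tested in 1 fit of all 39 libraries. It did for 11 of 32 genes, Cd79a, Cd79b, Cd22, Fcrl1, Cd37, Cxcr5, Tnfrsf13b, Tnfrsf17, Pou2af1, Mzb1 and Xbp1, beside 9.21% of 17126 genes. The smallest limma adjusted p-values were those of Tnfrsf13b (3.13e-04), Cxcr5 (8.06e-04), Pou2af1 (8.37e-04) and Cd79a (0.0018). With the 3 libraries of a mouse as a block, Cd72 and Vpreb3 were called as well, 13 genes in all, while calls over all genes rose from 1577 to 2219 of 17126. Without C57BL/6J mouse 2 the 11 were called with Bank1 and Vpreb3, also 13 in all, beside 1823 of 17030 genes. Without BALB/cJ mice 3 and 5 the count was 6, beside 782 of 16952 genes. Fcrl1 (adjusted p 0.080) and Cd37 (0.052) were not called without BALB/cJ mouse 2, nor was Cd37 (0.067) without C57BL/6J mouse 3. Under RLE scaling 9 genes were called, beside 1089 of 17126 genes, and Fcrl1 (limma adjusted p 0.058) and Mzb1 (0.071) were lost. With no filter on low values 9 were also called, beside 1427 of 28836 genes, and Fcrl1 (0.055) and Cd37 (0.058) were lost.

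The contrast lay between the duodenum/jejunum and the other tissues. The strain difference of Cd79a was larger in the colon than in the duodenum/jejunum by 1.44 on the log2 scale (SE 0.28, limma adjusted p 7.00e-04) and larger in the ileum than in the duodenum/jejunum by 0.98 (0.28, 0.043). For Tnfrsf17 these were 1.60 (SE 0.34, adjusted p 0.0016) and 1.13 (0.34, 0.047), and for Pou2af1 1.38 (0.26, 5.24e-04) and 1.10 (0.26, 0.021). Cxcr5, Tnfrsf13b and Xbp1 were called in both of these comparisons too. Cd79b, Cd22, Cd72, Fcrl1, Cd37 and Mzb1 were called for the colon against the duodenum/jejunum and not for the ileum against it, with Cd22 at 1.46 (SE 0.36, adjusted p 0.009) and 0.70 (0.36, 0.23). Between the ileum and the colon no strain difference was called for any of the 32 genes, and the smallest adjusted p was 0.15, for Sdc1.

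**Figure D3:**
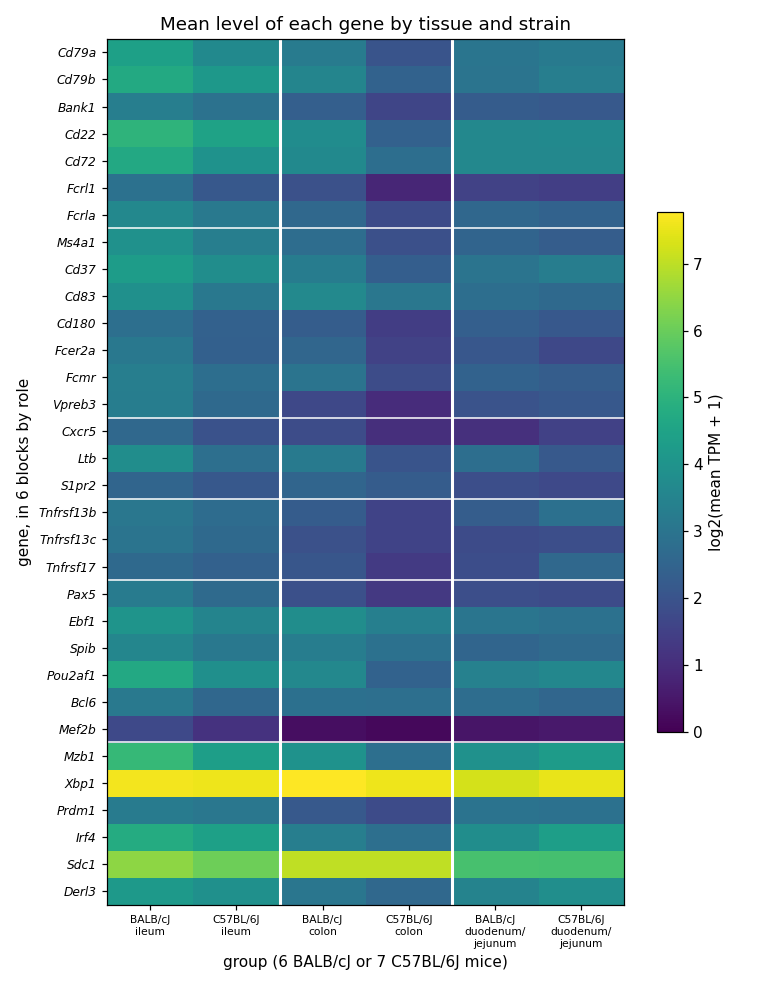
Mean level of each gene in the 6 groups as log2(mean TPM + 1), with genes in rows by role and tissue and strain in columns. Brighter (yellow) cells are higher. The ileum columns are brightest for most rows, Xbp1 and Sdc1 stand out in every column, and the BALB/cJ colon column is brighter than its C57BL/6J neighbour over the B cell rows.

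Along the gut, most of the 32 genes were highest in the ileum. The ileum had the highest mean for 29 genes in BALB/cJ and 26 in C57BL/6J, the colon for 3 and 4, and the duodenum/jejunum for 0 and 2. This ranking of means was not counted over all genes. Averaged over the strains, 26 genes were higher in the ileum than in the colon, only Sdc1 was lower and 5 were not called, beside 65.6% of 17126 genes called, 19.1% higher and 46.5% lower. Against the duodenum/jejunum 29 were higher in the ileum, none was lower and 3 were not called, beside 42.0% of genes called, 32.1% higher and 9.81% lower. The medians over the 32 genes were 1.07 and 0.77, beside -0.17 and 0.12 over all genes. The same 27 genes were called against the colon without C57BL/6J mouse 2, and against the duodenum/jejunum the same 29 with Tnfrsf17 (log2 0.42, adjusted p 0.041). RLE scaling gave 28 higher and 1 lower against the colon, and 24 higher and none lower against the duodenum/jejunum. Under it the calls over all genes were 5251 higher and 5394 lower for the ileum against the colon, in place of 3277 and 7963, and 2859 higher and 3051 lower against the duodenum/jejunum, in place of 5506 and 1680.

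Vpreb3 averaged 7.07 TPM in the ileum and 1.58 TPM in the colon, 4.47-fold higher, and was higher in the ileum in 12 of 13 mice (log2 1.61, SE 0.15, limma adjusted p 1.18e-11; 1.76 and 3.12e-14 without C57BL/6J mouse 2). Cd22 was 3.14-fold higher in the ileum than in the colon, in 13 of 13 mice, Pax5 3.3-fold in 12 of 13 and Irf4 3.13-fold in 13 of 13. Mef2b was 10.5-fold higher on means of 1.74 TPM in the ileum and 0.166 TPM in the colon. The low colon level makes that fold imprecise. Mef2b entered the fit of all 39 libraries, which needed 1 TPM in 6 of them, only through ileum libraries. Its calls between tissues therefore add no support to the counts. Cd83, S1pr2, Ebf1, Bcl6 and Xbp1 were not called between the ileum and the colon. Spib was called (log2 0.23, adjusted p 0.047) but not without BALB/cJ mouse 2 (0.19, 0.12) or without C57BL/6J mouse 3 (0.17, 0.11).

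Sdc1 was the only gene called lower in the ileum than in the colon. It averaged 76.3 TPM in the ileum, 130 TPM in the colon and 44.2 TPM in the duodenum/jejunum, with the ileum under the colon in 13 of 13 mice (log2 -0.80, SE 0.09, limma adjusted p 2.47e-10). S1pr2 and Xbp1 had the same order of tissues, with ileum minus colon at -0.07 (adjusted p 0.72) and -0.08 (0.14). Against the duodenum/jejunum Sdc1 was higher in the ileum, with most of the 32 genes.

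Between the colon and the duodenum/jejunum 6 genes were higher in the colon, Cd83, S1pr2, Ebf1, Spib, Xbp1 and Sdc1, 13 were lower and 13 were not called, beside 72.9% of genes called, 55.4% higher and 17.5% lower. The median over the 32 genes was -0.20, beside 0.28 over all genes. Under RLE scaling 3 were higher (Cd83, Spib and Sdc1) and 19 lower, Xbp1 turned to -0.08 (adjusted p 0.20), where it had been called at 0.27 (2.27e-06), and the calls over all genes were 5762 higher and 5902 lower in place of 9492 and 2995. Without C57BL/6J mouse 2 the same 19 genes were called, with Bank1 (-0.25, 0.027) and Fcrla (-0.29, 0.018) lower as well. The 13 lower genes included the plasma cell genes Prdm1 (2.97 TPM in the colon and 6.69 TPM in the duodenum/jejunum, log2 -0.98, limma adjusted p 4.71e-10), Irf4, Mzb1 and Derl3. Mef2b was also among the 13, on means of 0.166 TPM in the colon and 0.4 TPM in the duodenum/jejunum. It was not called without BALB/cJ mouse 2 (-0.21, 0.083).

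These colon calls average strains that differed. The colon mean was above the duodenum/jejunum mean for 25 of the 32 genes in BALB/cJ and for 7 in C57BL/6J, with median log2 differences of 0.24 and -0.57. No share over all genes in each strain stands beside these counts. Of the 13 genes called lower in the colon, all had the lower mean there in C57BL/6J, while in BALB/cJ Cd79a, Cd22, Cd72, Tnfrsf17, Pou2af1 and Mzb1 had the higher one. Cd79a averaged 8.51 TPM in the colon and 7.09 TPM in the duodenum/jejunum of BALB/cJ, against 3.05 and 8.3 TPM in C57BL/6J. Mzb1 averaged 14.5 and 14.2 TPM in BALB/cJ, against 6.16 and 18.4 TPM in C57BL/6J. Prdm1, Irf4, Derl3 and Vpreb3 were under their duodenum/jejunum means in the colon of both strains, Prdm1 at 3.49 and 6.85 TPM in BALB/cJ and 2.44 and 6.54 TPM in C57BL/6J.

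Between the ileum and the duodenum/jejunum Tnfrsf17, Bcl6 and Prdm1 were not called, and Cd180 (log2 0.33, adjusted p 0.034) was not called without BALB/cJ mouse 2 (0.27, 0.11) or C57BL/6J mouse 3 (0.28, 0.068).

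In single mice the ileum stood above the duodenum/jejunum with 1 exception. Each BALB/cJ mouse had 30 to 32 of the 32 genes higher in its ileum than in its duodenum/jejunum library, and each C57BL/6J mouse had 25 to 31 except mouse 2, which had 3. From 15 to 24 of the 32 genes were higher in the colon than in the duodenum/jejunum in each BALB/cJ mouse, and 4 to 11 in each C57BL/6J mouse. These ranges do not overlap, and only in BALB/cJ mouse 6 of its strain was the count under 20. The counts of single mice have no share over all genes beside them, so they describe these genes only.

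**Figure D4:**
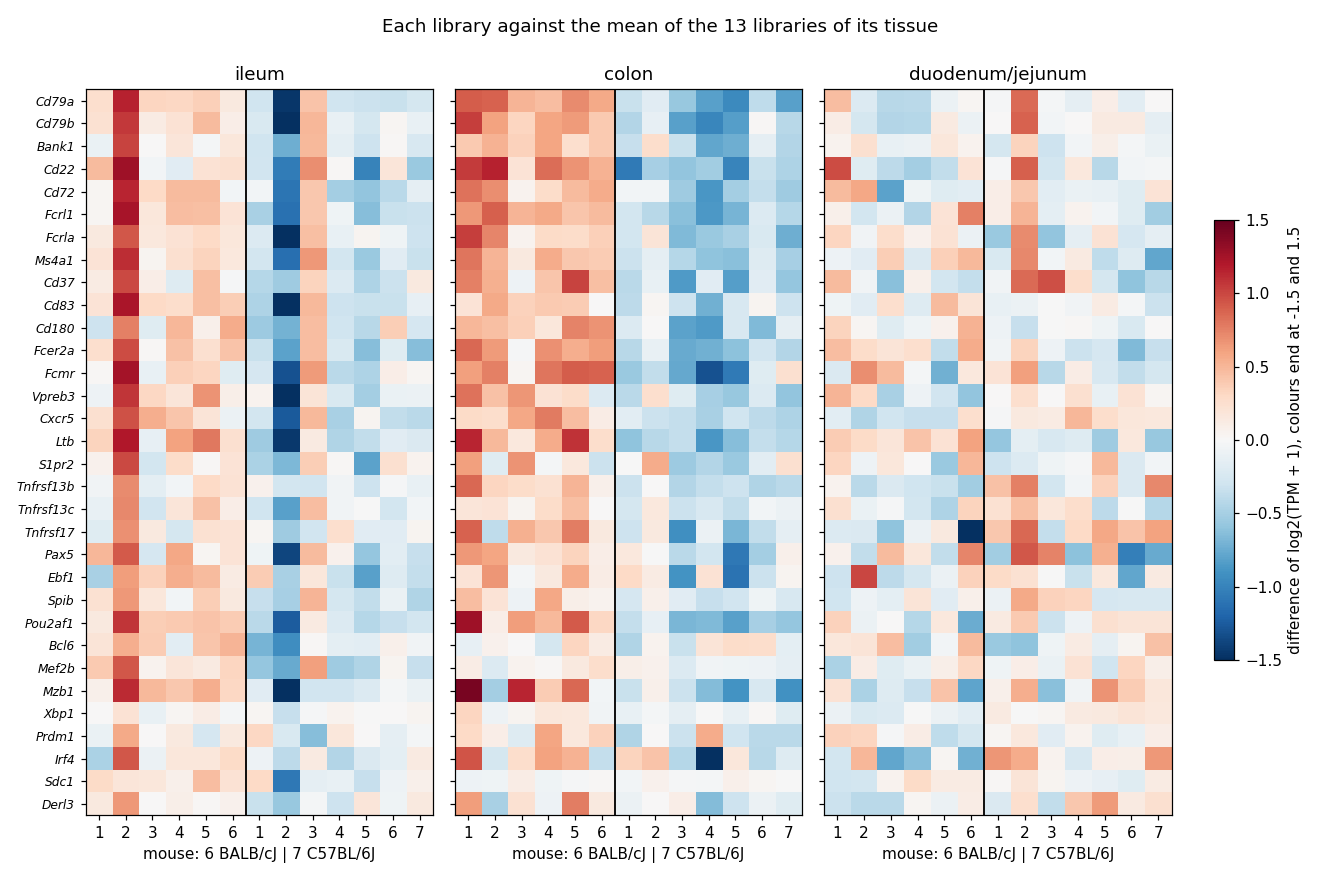
Deviation of each library from the mean of the 13 libraries of its tissue (log2 scale) for each gene, with BALB/cJ mice left of C57BL/6J mice in each tissue; the colours end at 1.5 on either side of 0. The colon block is divided by strain, the ileum library of BALB/cJ mouse 2 is high in nearly every row, and the ileum and duodenum/jejunum libraries of C57BL/6J mouse 2 deviate in opposite directions over the B cell rows.

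To set genes of particular B cell states against the B cell level of the same library, Mzb1, Tnfrsf17, S1pr2, Fcer2a and Cd79a were taken relative to Ms4a1, as differences of log2(TPM + 1). An exact 2-sided permutation test over the 1716 splits of 13 libraries was made for each of 15 combinations of gene and tissue, adjusted over the 15. The smallest p such a test can give is 5.83e-04. Only Cd79a in the colon was called, at 0.48 ± 0.18 in BALB/cJ and 0.10 ± 0.12 in C57BL/6J (SD, n = 6 and 7; exact permutation p 0.0023, adjusted p 0.035). Tnfrsf17 in the duodenum/jejunum was at -0.75 ± 0.94 in BALB/cJ and 0.36 ± 0.57 in C57BL/6J (exact permutation p 0.012, adjusted p 0.092). Mzb1 differed from Ms4a1 by 0.26 more in BALB/cJ than in C57BL/6J in the ileum (exact permutation p 0.31), by 0.14 in the colon (0.64) and by -0.59 in the duodenum/jejunum (0.1). The Cd79a difference of 0.38 was 0.35 (adjusted p 0.076) without BALB/cJ mouse 2 and 0.40 (0.065) without C57BL/6J mouse 2, so its size hardly moved while 0 of the 15 were called with either mouse left out. Without C57BL/6J mouse 3, 3 were called, among them Tnfrsf17 in the duodenum/jejunum (-1.25, 0.032) and in the ileum (-0.58, 0.032).

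**Figure D5:**
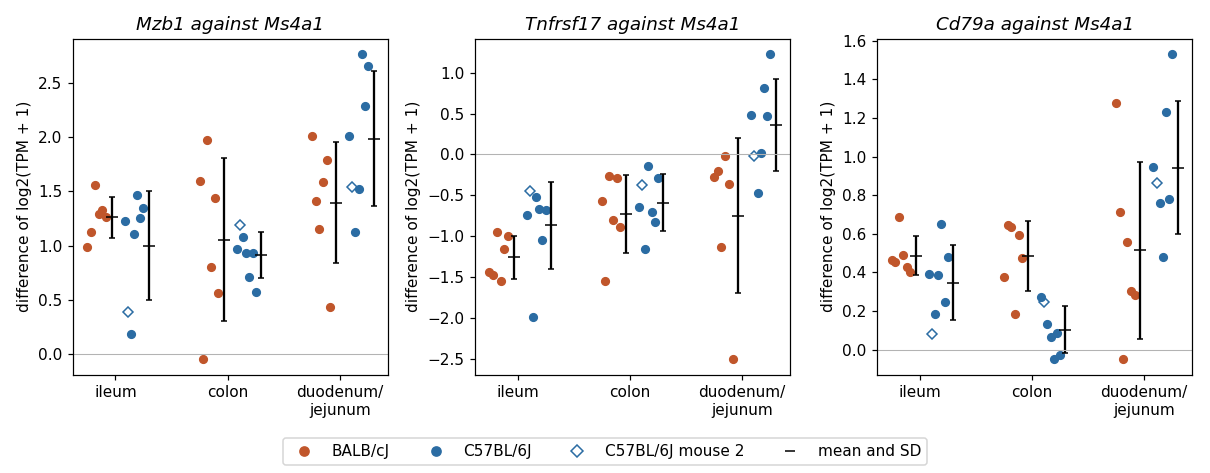
Level of Mzb1, Tnfrsf17 and Cd79a relative to Ms4a1 in each library, as a difference of log2(TPM + 1), by tissue with BALB/cJ left of C57BL/6J; each point is 1 mouse. In the colon Cd79a lies higher in BALB/cJ (mean 0.48) than in C57BL/6J (mean 0.10), while the Mzb1 and Tnfrsf17 points of the strains overlap in every tissue.

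Other genes of the same processes, and markers of other cells, were counted from lists that hold none of the 33 except Spib, which is also an M cell marker. Beside these counts, 14.5% of all genes were called higher and 10.8% lower in the BALB/cJ colon, 17.2% and 3.17% in the ileum, and 4.70% and 4.80% in the duodenum/jejunum. Of 17 partners of antigen receptor signalling, 10 were higher and none lower in the BALB/cJ colon, 5 higher and none lower in the ileum, and none higher and 2 lower in the duodenum/jejunum. The ileal counts were 3 higher and 1 lower without C57BL/6J mouse 2. Cr2, a complement receptor, was 4.07-fold higher in the colon (limma adjusted p 5.44e-05). In the duodenum/jejunum the phospholipase Plcg2 (log2 -0.57, adjusted p 0.0017) and the kinase Lyn (-0.30, 0.021), which other cells also make, were lower.

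Of the genes of lymphoid follicle organisation, 7 of 11 tested were higher in the colon, 6 of 11 in the ileum and 1 of 10 in the duodenum/jejunum (2 without C57BL/6J mouse 2), and none was lower. The duodenum/jejunum count is too small to set apart from the share over all genes. Ccl20, the chemokine of follicle-associated epithelium, was 2.62-fold higher in the colon (limma adjusted p 7.87e-06), and its receptor Ccr6 was 3.76-fold higher (1.60e-05).

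Of germinal centre partners, 2 of 9 tested were higher in the ileum and 1 was lower, near the share of all genes. In the colon 1 of 4, Cd40, was higher and 1 lower, and in the duodenum/jejunum 1 of 4 was lower. Rgs13, which is also a tuft cell gene, was lower in the ileum (log2 -0.92), the colon (-0.82) and the duodenum/jejunum (-0.78). The tuft cell markers tested, 3 in each small intestinal tissue and 4 in the colon, were all lower in BALB/cJ, and their part in the Rgs13 values was not tested.

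Of 20 genes of protein folding and export in secretory cells, 3 were higher in the colon, 1 in the ileum and none in the duodenum/jejunum, with none lower. The colon count is near the share of all genes called higher and the ileal count is under it. Edem1, which marks misfolded proteins for removal, was at 170 ± 23.9 TPM in BALB/cJ colon and 121 ± 9.5 TPM in C57BL/6J colon (SD, n = 6 and 7; limma adjusted p 5.91e-04). Epithelium makes most of these proteins too.

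The immunoglobulin products moved in different directions. In the colon Ighd (3.19-fold), Ighm (2.58-fold) and Jchain (2-fold) were higher in BALB/cJ, and Igha was at 1364 ± 565 TPM in BALB/cJ and 1250 ± 395 TPM in C57BL/6J (SD, n = 6 and 7; limma adjusted p 0.87). In the duodenum/jejunum Igha was at 857, 1701 and 3036 TPM in BALB/cJ, against 3485, 6342 and 7186 TPM in C57BL/6J, without overlap (log2 -1.74, SE 0.26, limma adjusted p 2.72e-04), and Igkc was also lower (-1.45, 0.039). Igha stayed lower there without C57BL/6J mouse 2 (-1.70, 7.68e-04) and Igkc was not called (-1.37, 0.073). In the ileum Ighm and Ighd were higher and Igha was lower (-0.65, limma adjusted p 0.038). Without that mouse ileal Igha was at -0.77 (0.0026) and Ighd was not called (0.64, 0.059), while Igkc was called higher in the colon (1.07, 0.024) and Ighm in the duodenum/jejunum (0.42, 0.015).

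Markers of other immune cells were also called higher in BALB/cJ. Of T cell markers, 8 of 11 tested were higher in the BALB/cJ colon, 5 of 14 in the ileum and none of 13 in the duodenum/jejunum, where 2 were lower. The ileal T cell counts were 4 higher and 1 lower without C57BL/6J mouse 2, and none was then called in the duodenum/jejunum. Their summed level in the colon was 39.3 to 49.8 TPM in BALB/cJ and 21 to 33.5 TPM in C57BL/6J. Of 12 myeloid markers, 9 were higher in the colon, 4 in the ileum and none in the duodenum/jejunum, and they summed to 320 to 575 TPM in BALB/cJ colon and 169 to 308 TPM in C57BL/6J colon. Of 6 M cell markers tested, Spib among them, 3 were higher in the colon and 1 in the ileum.

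No marker of epithelium or smooth muscle was called higher in BALB/cJ. Of 7 epithelial markers none was higher in any tissue and Cdh1 was lower in the colon. Of 6 smooth muscle markers none was higher, and Acta2 and Myh11 were lower in the colon, where the markers summed to 3060 to 4552 TPM in BALB/cJ and 4060 to 5034 TPM in C57BL/6J. In the ileum the smooth muscle sum of C57BL/6J ran from 184 to 1397 TPM. Pancreatic acinar markers summed to 178 to 1210 TPM in BALB/cJ colon and 181 to 308 TPM in C57BL/6J colon. Of 4 tested in the colon none was called. Their duodenum/jejunum sums ran from 200 to 6654 TPM in BALB/cJ and from 150 to 7210 TPM in C57BL/6J, with none of 13 called, and in the ileum Rnase1 and Cela1 were lower. The part of any of these in the B cell and plasma cell values was not tested.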

How the data were processed

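Per the labels' protocols, RNA was purified with a PureLink kit, depleted of ribosomal RNA with RiboZero and prepared as TruSeq total RNA libraries. Per the submitters' processing notes, transcripts were quantified with kallisto 0.44.0 on the mouse genome build GRCm38. For the annotation, the sources used here name none. The authors deposited log2 values, as log2(TPM + 1), in 3 tables, 1 per tissue. TPM was recovered from these deposited values and keeps no read depth, so there are no counting intervals, and the spread between mice sets the precision. Of the entries, 26 per table had names turned into numbers or dates and were left out. They held at most 0.24% of TPM. The tables had 0 columns of other samples.

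The strain comparison within a tissue used limma 3.58.1 and R 4.3.3 (variance trend, 2-sided, Benjamini-Hochberg over all genes with at least 1 TPM in 6 libraries). Differences between tissues came from 1 limma fit of all 39 libraries with 6 group means, after the tables were joined on their entries. Ratios used exact permutation in Python 3.11.15 with scipy 1.17.1, numpy 2.4.6 and pandas 2.3.3. The 95% intervals are normal approximations. Log2 differences are on the log2(TPM + 1) scale, which understates changes of low genes. The steps were tested on simulated data.

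The labels give each mouse its own identifier. The 3 libraries of a mouse are paired by it (consensus correlation 0.0963), while equal numbers in the strains stand for different mice. All 33 genes are named. Of other lists, up to 3 called genes per tissue with the smallest adjusted p are named, with markers of libraries that stand apart and genes of lists of up to 6. Some genes of these lists are not reported here. The genes and the lists were chosen with earlier results of these data known. Alternatives were RLE scaling, a pseudocount of 0.1, no filter on low values, no variance trend, a replicate block, and leaving out mice. Leaving out BALB/cJ mouse 2 and C57BL/6J mouse 3 was chosen after seeing the data. Promoter windows are from RefSeq.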

Additional observations from a re-analysis of the deposited data

Results flagged for a closer look

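Of 192 sets of 1 gene in 1 group, 25 (13%) held a library whose gap to the next was large for the range of its group. The criterion was Dixon's 95% limit, where chance gives about 1 in 20 for a single set. The sets are not independent, as the libraries labelled ileum of BALB/cJ mouse 2 and C57BL/6J mouse 2 held 8 flagged genes each. In the ileum library of BALB/cJ mouse 2, 8 genes stood apart as highest, Cd79a at 33.6 TPM (18.9 in the next library), Bank1 at 15.7, Fcrl1 at 11.7, Fcrla at 17.7, Ms4a1 at 24.3, Cd83 at 23.5, Pou2af1 at 37.8 and Derl3 at 24.5 TPM. In the library of C57BL/6J mouse 2 labelled ileum, 8 genes stood apart as lowest, Cd79a at 4.65 TPM, Cd79b at 3.88, Fcrla at 1.98, Vpreb3 at 1.49, Ltb at 2.43, Pou2af1 at 6.78, Mzb1 at 5.99 and Xbp1 at 151 TPM. In its library labelled duodenum/jejunum Cd79a (14.3 TPM) and Cd79b (15.3 TPM) were far above the rest, and in its colon library Tnfrsf13b was, at 2.67 TPM.

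The others were single genes. BALB/cJ mouse 3 was low in the colon for Fcer2a (2.92 TPM) and Fcmr (4.02 TPM), and BALB/cJ mouse 6 was low in the duodenum/jejunum for Tnfrsf17 (0.252 TPM). C57BL/6J mouse 3 was high in the ileum for Spib (13 TPM), C57BL/6J mouse 5 was high in the duodenum/jejunum for S1pr2 (3.75 TPM), and C57BL/6J mouse 4 was low in the colon for Irf4 (1.56 TPM).

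For 11 genes the strain difference differed between tissues by the test of that difference in limma. The adjusted p-values were 3.13e-04 for Tnfrsf13b, 8.06e-04 for Cxcr5, 8.37e-04 for Pou2af1, 0.0018 for Cd79a, 0.0037 for Tnfrsf17, 0.0052 for Xbp1, 0.016 for Cd79b, 0.023 for Cd22, 0.029 for Mzb1, 0.035 for Fcrl1 and 0.037 for Cd37.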

How the results depend on the processing

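Over single genes, 1854 values kept direction and side of the threshold under an alternative, 76 lost the call, 38 gained it and 30 changed sign. The colon count of 23 genes stayed between 19 and 25 under every alternative. Of the 9 genes called in the ileum, 4 were called under RLE scaling, 3 with no filter on low values and 3 without BALB/cJ mice 3 and 5, and leaving out a mouse gave 3 to 16. Over all genes 1824 were called in the ileum under RLE scaling, 2887 with no filter, 1812 without BALB/cJ mice 3 and 5 and 2284 to 4041 without a mouse. In the duodenum/jejunum 1 gene was called without BALB/cJ mice 3 and 5, and 2 to 4 without a mouse. Without BALB/cJ mice 3 and 5, the strain difference differed between tissues for 6 genes and for 782 over all genes. The causes were not tested.

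Equal mouse numbers do not pair the strains: deviations of same-numbered mice correlated from -0.347 to 0.225, and at most 2 of 6 pairs in a tissue were over 0.1. With the number as a replicate block all the same, 0 genes were called in the ileum (929 over all genes), 19 in the colon and 1 in the duodenum/jejunum, and Fcrl1 in the duodenum/jejunum was -0.01. With the libraries of a mouse as a block, the calls between tissues were the same.

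Of the signs that changed, only that of Xbp1 between the colon and the duodenum/jejunum was of a called difference (0.27, adjusted p 2.27e-06). Between strains, RLE scaling gave -0.12 for Xbp1 and -0.01 for Prdm1 in the ileum and -0.00 for Sdc1 in the duodenum/jejunum. Leaving out BALB/cJ mice 3 and 5 gave -0.03 for Bcl6 in the colon and, in the duodenum/jejunum, 0.08 for Cd22, 0.18 for Cd72, 0.01 for Tnfrsf13c and -0.04 for Sdc1. Leaving out a mouse gave -0.01 to 0.05 for Bcl6 in the colon and, in the duodenum/jejunum, -0.14 to 0.06 for Cd22, -0.17 to 0.01 for Cd72, -0.02 to 0.22 for Fcmr, -0.09 to 0.14 for Ebf1 and -0.02 to 0.07 for Prdm1. Between the ileum and the colon, S1pr2 was 0.09 under RLE scaling, 0.09 without BALB/cJ mice 3 and 5 and -0.18 to 0.03 without a mouse, Bcl6 was -0.04 to 0.08 without a mouse, and Xbp1 under RLE scaling was 0.13 and called (adjusted p 0.037). Between the colon and the duodenum/jejunum, RLE scaling gave -0.10 for Fcer2a, -0.24 for Fcmr, -0.08 for Cxcr5, -0.19 for Ltb, -0.10 for Bcl6 and -0.08 for Xbp1. There Fcmr was -0.00 with a pseudocount of 0.1, and Ms4a1 was 0.08 without BALB/cJ mice 3 and 5 and -0.07 to 0.02 without a mouse.

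Of the ratios to Ms4a1, Cd79a in the colon was 0.42 (adjusted p 0.052) with a pseudocount of 0.1 and 0.35 to 0.40 without a mouse. The number called was 0 with that pseudocount, 3 without BALB/cJ mice 3 and 5, and 0 to 3 without a mouse. Leaving out BALB/cJ mice 3 and 5 gave -0.19 for Mzb1, -0.82 for S1pr2 (adjusted p 0.045) and 0.22 for Fcer2a (0.045) in the colon and 0.13 for S1pr2 in the duodenum/jejunum. Without a mouse Tnfrsf17 ran from -0.58 to -0.32 in the ileum, from -0.23 to 0.03 in the colon and from -1.25 to -1.17 in the duodenum/jejunum. Read depth cannot be recovered from TPM, so genes near 1 TPM, such as Mef2b and Fcrl1, are the least precise.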
